A study of Mus musculus with 4 samples.

Results

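The genes described here copy DNA or accompany its copying in S phase. A list of 37 such genes was drawn up by function, with earlier results of these data known. It was looked up by symbol in the deposited table of eosinophils, and 34 of the 37 were found among its 5807 genes. Pold3, Rfc2 and Slbp were absent from the table, so nothing is known here of their direction. Eosinophils are granulocytes that arise from dividing precursors in the bone marrow and leave the cell cycle before they enter blood and tissue. Replication starts where the Mcm2 to Mcm7 helicase is loaded onto origins in G1 and switched on by Cdc45 and the GINS complex. Polymerases held by the sliding clamp PCNA then copy both strands, while ribonucleotide reductase and thymidylate synthase supply deoxynucleotides and chromatin factors rebuild nucleosomes behind the fork. Many of these genes are switched on together by E2F transcription factors at the entry into S phase.

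Both groups were eosinophils of wild-type (WT) mice of 6 to 8 weeks that had received LLC cells, a Lewis lung carcinoma line, in the pleural cavity. Eosinophils were sorted at day 2 from bone marrow (BM) and from pleural lavage fluid (labelled MPE, for malignant pleural effusion), with 2 libraries per tissue. The bone marrow cells were gated on SiglecF and high side scatter after enrichment on F4/80, whereas the pleural gate also required CD11b and F4/80 and left out CD11c-positive and Gr1-high cells. The table gives the authors' mean read count of each gene in each tissue alone, which allows neither a replicate error nor a test between the tissues. It lists genes that the authors called different between the tissues, so a listed gene had to differ. Summed over the listed genes, the mean reads came to 11762543 for bone marrow and 15947438 for pleural cavity eosinophils, sums that cover the listed genes and not whole libraries.

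Values are given as mean reads, as a level per kb (reads per kb of the longest annotated transcript per 1000000 listed reads) where genes are compared with each other, and as a log2 ratio of pleural cavity over bone marrow eosinophils. Ranks and folds per kb between genes depend on the transcript length taken. The log2 ratio was taken after adding 0.5 read and scaling each tissue to its listed reads. Leaving the reads unscaled would raise every log2 ratio by 0.44, and setting the median of the well-covered genes to 0 would lower it by 0.44. Genes with a log2 ratio under -1 are called lower and genes over 1 higher. Intervals are 95% exact (Clopper-Pearson) intervals and cover counting error only, not the spread between mice, and reads without molecular identifiers are not independent molecules.

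The stretches before the start sites of 8 members are shown here because letters read as E2F sites were frequent among the members. They come from RefSeq for GRCm38.p6, reach up to 200 bases before the start site and leave out annotated exons. Capitals mark the E2F letters, searched on both strands as TTTCCCGC, TTTGGCGC, TTTGCCGC and TTTCGCGC, where overlapping matches were counted separately. Mcm7, Rrm2 and Cdca7 are shown as the genes with the most reads per kb in bone marrow in their role groups. Mcm6, Mcm5, Cdc6, Dtl and Pola1 were picked for the letters they hold. The stretches lie at chr5:138171267-138171466 on the minus strand for Mcm7, chr1:128359706-128359905 on the minus strand for Mcm6, chr8:75109309-75109508 on the plus strand for Mcm5, chr2:72476019-72476158 on the plus strand for Cdca7, chr11:98907982-98908150 on the plus strand for Cdc6, chr1:191575545-191575635 on the minus strand for Dtl, chrX:93632156-93632355 on the minus strand for Pola1 and chr12:24708054-24708240 on the plus strand for Rrm2.
Mcm7: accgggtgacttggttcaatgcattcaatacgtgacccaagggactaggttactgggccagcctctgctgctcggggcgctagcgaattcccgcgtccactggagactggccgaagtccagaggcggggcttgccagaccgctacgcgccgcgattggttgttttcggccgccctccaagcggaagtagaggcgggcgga
Mcm6: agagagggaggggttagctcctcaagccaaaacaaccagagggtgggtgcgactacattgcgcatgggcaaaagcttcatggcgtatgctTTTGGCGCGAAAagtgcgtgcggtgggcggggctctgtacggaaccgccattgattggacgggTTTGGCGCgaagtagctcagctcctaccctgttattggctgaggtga
Mcm5: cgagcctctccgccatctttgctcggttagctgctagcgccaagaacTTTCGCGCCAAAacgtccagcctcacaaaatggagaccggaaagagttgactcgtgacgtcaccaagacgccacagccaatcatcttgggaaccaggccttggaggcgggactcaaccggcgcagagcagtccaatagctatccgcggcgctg
Cdca7: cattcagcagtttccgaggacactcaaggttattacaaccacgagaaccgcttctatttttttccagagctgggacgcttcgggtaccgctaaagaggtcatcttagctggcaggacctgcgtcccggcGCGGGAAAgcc
Cdc6: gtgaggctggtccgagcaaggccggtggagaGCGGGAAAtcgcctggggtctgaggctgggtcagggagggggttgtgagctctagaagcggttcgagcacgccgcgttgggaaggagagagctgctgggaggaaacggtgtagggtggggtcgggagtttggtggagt
Dtl: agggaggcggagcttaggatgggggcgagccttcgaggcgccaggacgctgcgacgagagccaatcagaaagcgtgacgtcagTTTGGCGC
Pola1: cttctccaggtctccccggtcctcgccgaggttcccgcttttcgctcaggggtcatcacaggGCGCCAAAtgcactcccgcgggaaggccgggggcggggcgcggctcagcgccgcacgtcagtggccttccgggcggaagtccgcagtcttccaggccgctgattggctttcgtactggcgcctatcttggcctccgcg
Rrm2: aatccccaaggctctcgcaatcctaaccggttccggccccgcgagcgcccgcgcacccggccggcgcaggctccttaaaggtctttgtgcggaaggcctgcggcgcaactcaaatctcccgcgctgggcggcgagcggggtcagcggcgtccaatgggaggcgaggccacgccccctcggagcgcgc

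Of the 34 listed members, 27 had an entry in the promoter table, which covers 250 bases before to 50 after a start site. Of these 27 genes, 12 held E2F letters (44.4%), against 4.75% of the 4670 listed genes with an entry and 2.60% of all 27025 genes in the table. Mcm6, a helicase subunit, held matches beginning 110, 106 and 47 bases before the start site. In Mcm5 the matches began 153 and 149 bases before it and overlapped, and in Dtl, which encodes the adaptor that marks Cdt1 for destruction, the match began 8 bases before it. Cdca7, Cdc6, Hells and Pola1 also held a match before the start site. By the gene coordinates used for the transcript lengths, the matches of Cdc6 and Hells lay inside the gene. Mcm7 and Uhrf1 held a match before another annotated start site, and Mcm7 held a further match 17 bases after that site. These too lay inside the gene, and the stretch shown for Mcm7 has no capitals. The matches of Clspn, Mcm3 and Ubr7 lay after the start site. The letters CCAAT of another common promoter element, searched on both strands and contained in no E2F spelling, were found in 19 of the 27 genes (70.4%), against 45.0% of the listed genes and 41.1% of all genes in the table. Of 57 other replication genes described later, 28.1% held E2F letters and 54.4% held CCAAT. Rrm2 held CCAAT 50 bases before its start site and none of the E2F letters. These matches describe the letters in the window and are no evidence of binding.

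All 34 members had fewer scaled reads in pleural cavity than in bone marrow eosinophils, as had 57.5% of all listed genes. Of them, 33 were lower by the threshold, 97.1%, where 50.5% of all listed genes were lower. None was higher, against 16.0% of all listed genes. Under -2, 30 members were counted, against 36.6% of all listed genes. Without scaling, 43.2% of all listed genes were lower and 30.5% higher, and 31 members were lower, since Pcna came to -0.99 and Wdr76 to -0.82. The median log2 ratio of the members was -3.68, with quartiles of -4.52 and -2.57, and that of all listed genes was -1.02. Summed, the members held a share of listed reads of 0.477% in bone marrow and 0.0554% in pleural cavity eosinophils, an 8.62-fold difference of the shares. In these bulk libraries, fewer cells in S phase, less RNA per cell and a different share of other cells cannot be told apart. Reads were fractional for Gins2, Tyms, Ung, Hells, Atad2 and Cenpu. RSEM gives such values where a read could come from several genes, and those of these 6 members are uncertain.

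**Figure D1:**
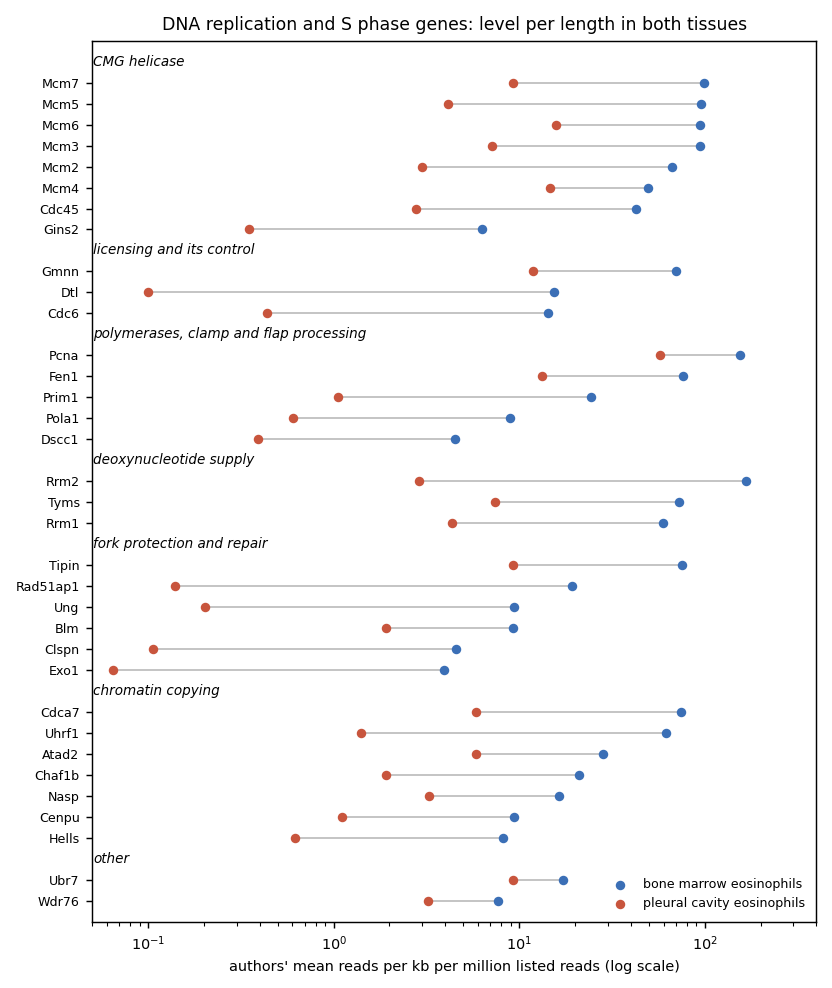
Level per kb (authors' mean reads per kb per 1000000 listed reads, log axis) of the 34 listed members in bone marrow (blue) and pleural cavity (red) eosinophils, grouped by role. Every red point lies left of its blue point, by the shortest distance for Ubr7 and by the longest for Dtl.

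The replicative helicase was lower throughout. The 8 listed genes of the CMG helicase, the complex of Cdc45, MCM and GINS that unwinds DNA, had log2 ratios from -4.52 to -1.74 with a median of -3.82. Mcm5 had 3794 mean reads in bone marrow and 223 in pleural cavity eosinophils, a log2 ratio of -4.52 (interval -4.67 to -4.39). Mcm2 was close to it, with 2729 and 166.5 mean reads and a log2 ratio of -4.47. At the other end stood Mcm4, with 2080.5 and 844 mean reads and a log2 ratio of -1.74 (interval -1.82 to -1.66). Mcm6 had 4831.5 and 1101 mean reads and a log2 ratio of -2.57. Between these, Mcm3 had 3798.5 and 391.5 mean reads with a log2 ratio of -3.72, and Mcm7 had 3445.5 and 436 with one of -3.42. The intervals of Mcm4 and Mcm6 did not touch those of the other subunits. Cdc45, which activates the loaded helicase, had 1075.5 and 95.5 mean reads and a log2 ratio of -3.93. Gins2, a subunit of GINS, had 289.53 and 21.7 mean reads and a log2 ratio of -4.15.

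The MCM subunits form a ring with the same number of copies of each, and their transcripts were less even in pleural cavity eosinophils. Per kb, the highest subunit exceeded the lowest 2.01-fold in bone marrow and 5.31-fold in pleural cavity eosinophils. Mcm4 made up 9.89% of the summed reads per kb of the 6 genes in bone marrow, the smallest share, and 27.3% in pleural cavity eosinophils. Mcm6 went from 18.9% to 29.3%, whereas Mcm5 went from 19.1% to 7.64% and Mcm2 from 13.3% to 5.52%. These shares compare genes within a tissue and do not depend on the scaling between tissues.

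**Figure D2:**
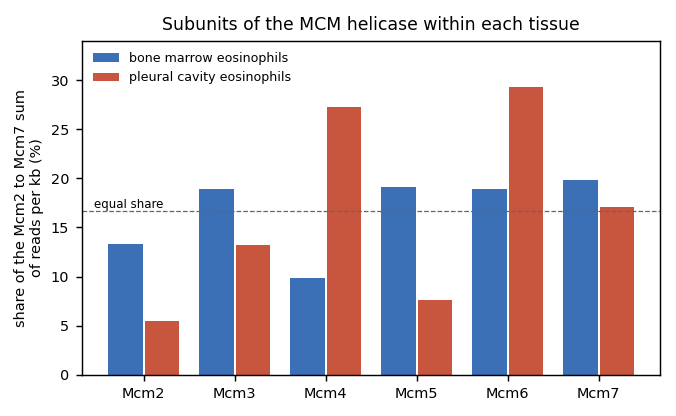
Share (%) of each MCM subunit gene in the summed reads per kb of Mcm2 to Mcm7 within bone marrow (blue) and pleural cavity (red) eosinophils, from the authors' mean reads, with a dashed line at equal shares. Mcm4 and Mcm6 hold the largest shares in pleural cavity eosinophils, 27.3% and 29.3%.

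The genes that license origins and limit licensing differed more among themselves. Dtl, encoded on chromosome 1 between 191537356 and 191575544 (GRCm38, minus strand), had 850 mean reads in bone marrow and 7.5 in pleural cavity eosinophils. Its log2 ratio of -7.17 (interval -8.10 to -6.54) was the lowest of all members, and 130 of the 5807 listed genes had a lower one. Cdc6, which loads the MCM ring, had 812.5 and 33.5 mean reads and a log2 ratio of -5.02. Gmnn encodes geminin, which binds Cdt1 and blocks a further round of licensing. It had 928.5 and 212.5 mean reads and a log2 ratio of -2.56. Cdt1, named here as the partner of Gmnn after its values were seen, had a log2 ratio of -1.93.

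Of the polymerase, clamp and flap genes, 5 were listed, with a median log2 ratio of -3.50. Pcna, encoded on chromosome 2 between 132249162 and 132253314, kept the most reads. It had 2754.5 mean reads in bone marrow and 1383.5 in pleural cavity eosinophils, a log2 ratio of -1.43. The level per kb of Pcna was 57.1 in pleural cavity eosinophils, the highest of the members there, followed by Mcm6 with 15.9, Mcm4 with 14.7 and Fen1 with 13.2. Its share of the members' summed reads per kb was 9.76% in bone marrow and 28.4% in pleural cavity eosinophils. Fen1, which trims the flaps of Okazaki fragments, had 2134 and 500 mean reads and a log2 ratio of -2.53. Prim1 and Pola1, the catalytic subunits of the primase and polymerase alpha complex that starts each fragment, had lower ratios. Prim1 had 895 and 52.5 mean reads and a log2 ratio of -4.52, and Pola1 had 564.5 and 51.5 and a log2 ratio of -3.88. Dscc1, part of an alternative clamp loader, had 174.5 and 20.5 mean reads and a log2 ratio of -3.50.

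The genes of deoxynucleotide supply were lower too, and the subunits of ribonucleotide reductase differed from each other. Rrm2, the small subunit of ribonucleotide reductase that dividing cells make in S phase, was the most abundant member per kb in bone marrow, with a level per kb of 166.3, and had 2.90 in pleural cavity eosinophils. Its mean reads were 4290.5 and 101.5, a log2 ratio of -5.83 (interval -6.05 to -5.64). Rrm1, the large subunit, had 3846.5 and 380 mean reads and a log2 ratio of -3.78. Tyms, thymidylate synthase, had 3303.395 and 456.855 mean reads and a log2 ratio of -3.29. Rrm2b, the small subunit used outside S phase, is not among the 37 genes and went the other way, with 247.5 mean reads in bone marrow and 609.5 in pleural cavity eosinophils. Per kb, Rrm2 exceeded Rrm2b 36.1-fold in bone marrow, while Rrm2b exceeded Rrm2 2.89-fold in pleural cavity eosinophils.

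Genes of fork protection and repair had the lowest median of the role groups, -5.40, on few pleural cavity reads. Rad51ap1, a factor of homologous recombination, had 506.5 mean reads in bone marrow and 5 in pleural cavity eosinophils, a log2 ratio of -6.97 (interval -8.17 to -6.22). Exo1, a nuclease, had 361.5 and 8 mean reads and a log2 ratio of -5.85. Ung, which removes uracil from DNA, had 341.915 and 10 mean reads and a log2 ratio of -5.47. Clspn, the checkpoint adaptor claspin, had 269 and 8.5 mean reads and a log2 ratio of -5.34. Pleural cavity mean reads were at most 10 for these 4 genes and Dtl, and the interval was widest for Rad51ap1, at 0.97 on either side on average. Blm, a helicase of recombination, had 520 and 146 mean reads and a log2 ratio of -2.27. Tipin, which forms the fork protection complex with Timeless, had 1634 and 272 mean reads and a log2 ratio of -3.02.

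Of the members grouped as chromatin genes, 7 were listed, with a median log2 ratio of -3.46. Uhrf1, which carries DNA methylation across replication, was the lowest, with 2618 and 80.5 mean reads and a log2 ratio of -5.45. Hells, a remodeller, had 564.64 and 58.08 mean reads, and Cdca7, its partner, had 2116 and 227. Their log2 ratios of -3.71 and -3.66 were close, and Cdca7 exceeded Hells 9.07-fold per kb in bone marrow and 9.46-fold in pleural cavity eosinophils. Chaf1b, a subunit of the chromatin assembly factor, had 701.5 and 86 mean reads and a log2 ratio of -3.46. Cenpu, a centromere protein, had 330.035 and 52.98 mean reads and a log2 ratio of -3.07. The histone chaperone Nasp had 610.5 and 164.5 mean reads and a log2 ratio of -2.33. Atad2, a bromodomain ATPase, had 1889.9 and 532.435 mean reads and a log2 ratio of -2.27. Wdr76 and Ubr7, the remaining members, differed least between the tissues. Wdr76 had 376 and 213.5 mean reads and a log2 ratio of -1.25 (interval -1.43 to -1.08). Ubr7, a ubiquitin ligase, had 659.5 and 484 mean reads, and its log2 ratio of -0.89 (interval -1.01 to -0.76) was the only one of the 34 within 1 of 0. The role groups overlapped in their ratios, and differences between them were not tested.

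**Figure D3:**
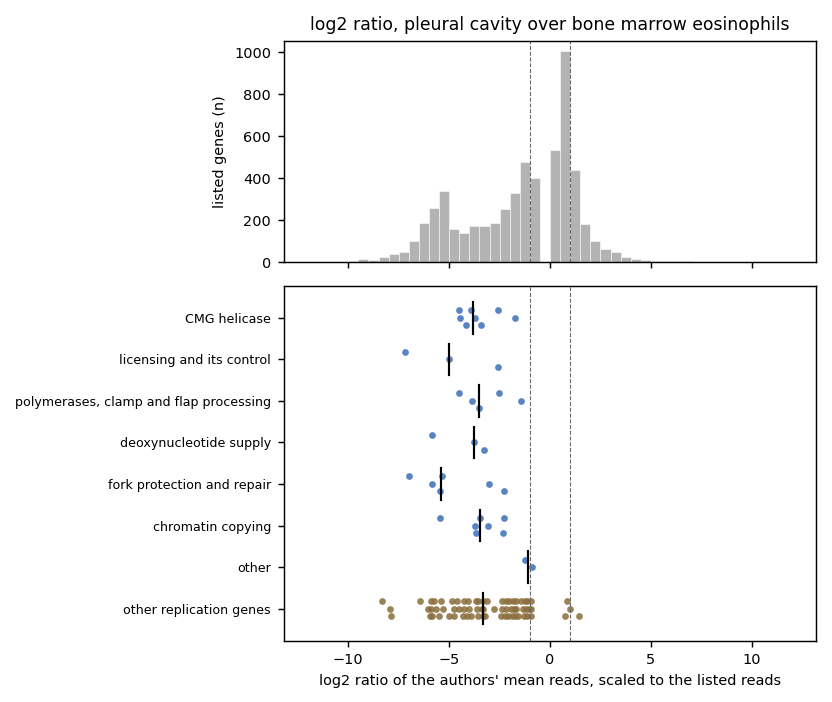
Log2 ratio of the authors' mean reads, pleural cavity over bone marrow eosinophils. The histogram holds all 5807 listed genes, the points below are members by role and the 69 other replication genes, bars are medians and dashed lines mark -1 and 1. All members but Ubr7 lie left of -1.

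Other genes of replication and S phase were taken from a list of 88 written from general knowledge, of which 69 were listed. Of these, 62 were lower (89.9%, against 50.5% of all listed genes), and the median log2 ratio of the 69 genes was -3.33. Of the rest, 1 was higher (16.0% of all listed genes were) and 6 were within 1 of 0, but 4 were higher without scaling and none with the median of the well-covered genes set to 0. By role, 11 of 12 origin genes were lower, 16 of 20 polymerase, clamp loader and Okazaki fragment genes, all 12 fork and repair genes, 7 of 9 nucleotide genes, all 6 chromatin genes and all 10 genes of S phase transcription. The most abundant of them that were lower were Cdk2, the S phase kinase, with a log2 ratio of -1.12 (-0.68 unscaled), Tfdp1, the partner of E2F factors, with -1.60, and Dnmt1, the maintenance DNA methyltransferase, with -2.17. Pold1, the catalytic subunit of polymerase delta, had -1.29 (-0.85 unscaled) with fractional reads, and Asf1b, a histone chaperone, had -4.76. Ratios over 0 were found for 4 genes, under each scaling tried. Samhd1, which breaks down deoxynucleotides, had 13242 mean reads in bone marrow and 48494 in pleural cavity eosinophils, a log2 ratio of 1.43, or 0.99 with that median set to 0. Chtf8 had a log2 ratio of 0.98, Rrm2b of 0.86 and Dna2, a nuclease with roles in repair, of 0.75. At the low end, named after their values were seen, Ticrr, which helps fire origins, had 465.5 and 1.5 mean reads and a log2 ratio of -8.30 (interval -11.0 to -7.17). Dctd, which deaminates dCMP, had 90.5 mean reads in bone marrow and 0 in pleural cavity eosinophils, at least 40.9-fold lower when 3 mean reads are taken as the floor.

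Partners of members, chosen after their values were seen, did not always have like ratios. Per kb, Pola2 exceeded Pola1 2.78-fold in bone marrow and 19.8-fold in pleural cavity eosinophils, and Prim2 went from 0.685 to 3.02 times Prim1. The log2 ratio of Pola2 was -1.06, or -0.62 unscaled, and that of Prim2 was -2.39, both nearer to 0 than that of Fen1. Tipin exceeded Timeless 4.96-fold in bone marrow and 18.2-fold in pleural cavity eosinophils, and Chaf1b exceeded Chaf1a 1.69-fold and 6.16-fold. Reads were fractional for Pola2 and Timeless. The proliferation markers Mki67 and Top2a had log2 ratios of -3.57 and -6.41.

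Most listed marker genes of other bone marrow cells were lower as well. All 14 genes of the neutrophil and granulocyte precursor list were listed and 13 were lower. Together the 14 held 10.6% of the listed reads in bone marrow and 0.235% in pleural cavity eosinophils. Mmp9, the gene not lower, had a log2 ratio of 0.87. It held 34715 of the list's 37488 mean reads in pleural cavity eosinophils. The median log2 ratio of the 14 genes was -9.36, and 12 of them lay below the lowest member, Dtl. Ngp, for example, had 263228.5 mean reads in bone marrow and 546.5 in pleural cavity eosinophils. All 7 basophil and mast cell markers were lower, with a median of -7.72. Of 6 progenitor markers, 5 were listed and 4 were lower, with Kit at a log2 ratio of -3.29, Cd34 at -3.58 and Meis1 at 1.11. No gene of these 3 lists was at 0 in either tissue. The 6 listed of 10 erythroid markers were all lower, with Slc4a1 among those at 0 in pleural cavity eosinophils. Of 9 B cell markers 4 were listed and 3 were lower, with Igll1 at 0 in pleural cavity eosinophils, while Ms4a1 was higher, with 107 and 366 mean reads and a log2 ratio of 1.33. The 3 listed of 8 T and NK cell markers were lower. The listed erythroid markers (-6.79 to -3.46) and T and NK cell markers (-6.97 to -2.37) lay inside the range of the members. So did the progenitor markers Kit, Cd34, Cd27 and Hlf, whereas Meis1 lay above that range. Of the basophil and mast cell markers, Hdc (-3.60), Gata2 and Fcer1a lay inside it. Prss34, Mcpt8, Cpa3 and Ms4a2 lay below it. Cxcr2 (-3.56) was the only gene of the neutrophil and granulocyte precursor list inside the range of the members. Of 10 macrophage and monocyte markers 7 were listed, 4 higher and 2 lower. Of 8 eosinophil markers 6 were listed, 3 higher and 3 lower, and Il5ra and Cebpe were not listed. SiglecF (Siglecf) had 7105.5 and 21371 mean reads and a log2 ratio of 1.15, Ccr3 had 1.54 and Gata1 had 1.11. The granule genes Prg2 and Epx had log2 ratios of -8.99 and -9.11, and Alox15 had -1.85. The part of these cells, and of the different gates, in the values of the replication genes was not tested.

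**Figure D4:**
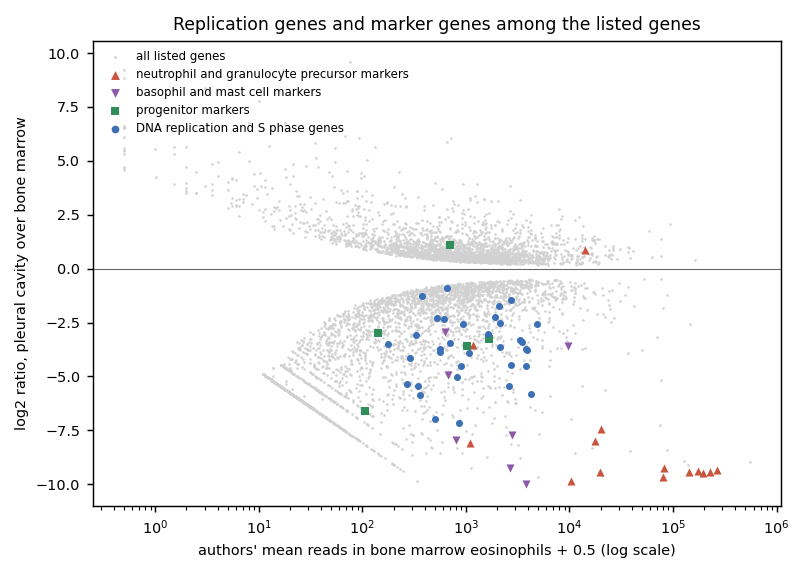
Log2 ratio, pleural cavity over bone marrow eosinophils, against the authors' mean reads in bone marrow plus 0.5 (log axis), for all listed genes (grey), the 34 members (blue) and marker lists of other cells. The members span -7.17 to -0.89 and lie above 12 of the 14 neutrophil markers. Some progenitor and basophil markers lie in that range. The median of the basophil and mast cell markers (-7.72) lies below it and the progenitor marker Meis1 (1.11) above it.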

How the data were processed

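RNA of eosinophils sorted from bone marrow and pleural lavage fluid was sequenced as paired reads of 100 bp, with 2 libraries per tissue, grouped by their titles. Per the study's methods and the labels, the authors trimmed reads with SOAPnuke, aligned them with HISAT2 2.1.0 to GRCm38 and estimated expected counts per gene with Bowtie2 2.2.5 and RSEM 1.2.8. The deposited expected counts are means over the libraries of a tissue, scaled for neither depth nor length, and depth per library is unknown. The table's other 3 measurement columns hold the authors' own DESeq2 comparison (log2 fold change, p-value and q-value) and were not used. The number of unused columns of per-sample values was 0.

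Log2 ratios were computed from the 2 mean columns with 0.5 read added and scaling to the listed reads, tried on simulated data beforehand. Lengths came from GENCODE vM21 on the same assembly and promoters from RefSeq (GRCm38.p6). A mean that was no multiple of 0.5 read within 1e-06 was called fractional. All listed members were named, as were the most abundant other replication genes and those with a ratio over 0. Members and lists were chosen with earlier results of these data known. Alternatives covered scaling, added reads, low reads, fractional reads and thresholds. Tools were numpy 2.4.6, scipy 1.17.1, pandas 2.3.3 and matplotlib 3.10.9 under Python 3.11.15.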

Additional observations from a re-analysis of the deposited data

How the results depend on the processing

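The number of members lower in pleural cavity eosinophils stayed between 27 and 34 under every alternative run. The 27 were of 28 genes without fractional reads. With the threshold at -1, the lower other replication genes numbered 49 of 55 without fractional reads and 55 to 65 of 69 otherwise. Over the same alternatives, 43.2% to 57.3% of all listed genes were lower. Under thresholds of -2 and 0, 46 and 65 of the 69 were counted, against 36.6% and 57.5% of all listed genes. The median log2 ratio of the members, -3.68, became -3.24 without scaling, -4.13 with the median of genes of at least 1000 mean reads in both tissues set to 0, -3.49 with a trimmed mean of log2 ratios and -3.95 with marker genes left out of the scaling, an alternative chosen after seeing the data. The members' reads per 1000000 listed reads, 4769 and 554, became 6145 in bone marrow and 637 in pleural cavity eosinophils without the 10 genes with the most reads in either tissue, and 4198 and 483 without members with fractional reads. No named gene that was lower or higher changed sign, but some crossed the threshold of 1. Without scaling, Pcna (-0.99), Wdr76 (-0.82), Cdk2 (-0.68), Pold1 (-0.85) and Pola2 (-0.62) were no longer lower, and Chtf8 (1.42), Rrm2b (1.30) and Dna2 (1.19) became higher. With the trimmed mean, Cdk2 (-0.93) and Pola2 (-0.87) were no longer lower, and Chtf8 (1.17) and Rrm2b (1.05) became higher. With the median set to 0, Samhd1 (0.99) was no longer higher and Ubr7 (-1.33) became lower, as it did (-1.15) with marker genes left out. No paired analysis was possible because the mean columns carry no replicate numbers, and for the same reason no library could be left out. The spread between mice behind each ratio is unknown.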
